A study of Mus musculus with 12 samples.

Results

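The pulmonary vascular tone genes analysed here were 10 genes that set how tightly lung vessels are constricted, chosen by their symbols in the gene count table: *Nos3*, *Gucy1a1*, *Gucy1b1*, *Prkg1*, *Pde5a*, *Edn1*, *Ednra*, *Ptgis*, *Ace* and *Agtr1a*. They were 10 of the 55487 genes in that table, and all 10 were among the 45828 genes tested. RNA-Seq was carried out on 12 whole lungs of C57BL/6J mice on postnatal day (PND) 21, and every mouse, the controls included, was *miR-30a* -/-. From PND 1 until PND 5 the pups breathed 95% oxygen (hyperoxia) or room air, with 3 males and 3 females per exposure. Wild-type lungs were not analysed here, so that an effect of the deletion itself cannot be read from these groups. The comparisons ask whether early oxygen left a difference in these genes after recovery in room air, and whether it differed between the sexes.

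Endothelial nitric oxide synthase makes nitric oxide, which diffuses into smooth muscle and activates soluble guanylate cyclase, so that cyclic GMP (cGMP) and its protein kinase relax the vessel until phosphodiesterase degrades the cGMP. Prostacyclin from the endothelium also relaxes the vessel, whereas endothelin-1 and angiotensin II constrict it through receptors on smooth muscle. In the newborn lung these pathways take part in the fall of vascular resistance after birth, and drugs that act on several of them are used in pulmonary hypertension.

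The deleted microRNA binds messenger RNA through its seed, bases 2 to 8 from the 5′ end. Mature mmu-miR-30a-5p lies at chr1:23272274-23272295 (GRCm38, plus strand), and its sequence from RefSeq is shown because the 3′ ends of the members were searched for its match, with the seed in capitals.
mmu-miR-30a-5p: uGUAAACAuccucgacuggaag
mmu-miR-30c-5p: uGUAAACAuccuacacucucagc
mmu-miR-30e-5p: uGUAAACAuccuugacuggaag
mmu-miR-384-5p: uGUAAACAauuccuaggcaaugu
The 3 lower sequences are other mature microRNAs with the same seed in the source used here, a list that may not be the whole family. A match to miR-30a-5p is also a match to them.

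The complement of the seed, TGTTTAC, was searched for in the longest annotated 3′ untranslated region of each gene. It was present in 2 of the 10 members, the receptors *Ednra* and *Agtr1a*, against 14.1% of 21186 genes with such a region. *Ednra* held 2 matches and *Agtr1a* held 1, and the windows below show them in capitals, read along each gene's own strand in the GENCODE M21 transcripts.
Agtr1a, chr13:30382821-30382847, plus strand: tggcaatgtaTGTTTACctctaaataa
Ednra, chr8:77663840-77663866, minus strand: ggattttgctTGTTTACttggatttgt
Ednra, chr8:77663096-77663122, minus strand: ttttcccagaTGTTTACagactgtgag
A match of letters is no evidence of binding, and all lungs lack miR-30a, so that no comparison here tests these sites.

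The 12 libraries held 8763033 to 16741694 counts on genes, with a median of 11942546, and the smallest level taken as detectable, 3 counts, stood at 0.190 to 0.326 CPM. CPM are counts scaled to the same library size, here with upper-quartile normalization, and such floors cover counting error only. Every member lay far above the floor, with between 141 counts (*Edn1*) and 12530 counts (*Ace*) in a lung. Olfactory and vomeronasal receptor genes, which lung is not known to use broadly, took 0.435% to 1.00% of all counts. This receptor share served as a measure of background reads, and the predicted genes *Gm10800*, *Gm10801*, *Gm21738* and *Gm10718* together took a further 7.23% to 28.9%. The paper reports sensory perception as enriched in hyperoxia-exposed *miR-30a* -/- females and lists olfactory receptor genes among those upregulated there. Whether the receptor share holds such signal was not tested, and a fit with it as covariate would remove that too. The tissue was lung by its markers, with 8 of 8 alveolar and 4 of 4 airway epithelial genes counted in every library. Markers of endothelium (10 of 10 counted in every lung) summed to 1451 to 2791 CPM after hyperoxia and 1617 to 3056 CPM in room air. Those of smooth muscle (8 of 8) summed to 203 to 299 CPM and 248 to 368 CPM, and those of pericytes (5 of 5) to 322 to 581 CPM and 324 to 535 CPM. The 5 red cell genes summed to 1244 to 4640 CPM after hyperoxia, under the 5107 to 7865 CPM of room air. Of the 5, 3 were called lower in both sexes together, where 0.0415% of all genes were called. The 7 heart muscle genes summed to 111 to 145 CPM in hyperoxia females and 220 to 248 CPM in room air females. These female sums did not overlap, as was the case for 17.2% of all genes taken singly. In males they summed to 114 to 118 CPM after hyperoxia and 110 to 264 CPM in room air. The library of room air male 1 stood apart, with 6240 CPM on 9 skeletal muscle genes against 375 to 620 CPM in the other lungs. The part of these differences in the results was not tested. In whole lung, fewer cells of a type and less RNA per cell cannot be told apart.

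The members spanned a wide range of levels. Per kilobase of exon, *Ace*, the angiotensin-converting enzyme of the endothelial surface, was the highest member with 111 ± 26.9 CPM (SD, n = 12), and it was above the next member in 12 of 12 lungs. *Gucy1a1*, the alpha subunit of soluble guanylate cyclase, had 36.0 ± 9.54 CPM per kilobase, *Pde5a*, the phosphodiesterase that degrades cGMP, 31.8 ± 8.43, and *Gucy1b1*, the beta subunit of the cyclase, 30.0 ± 7.77 (SD, n = 12 each). The order of these 3 was not fixed: *Gucy1a1* was above *Pde5a* in 9 of 12 lungs and *Pde5a* above *Gucy1b1* in 8 of 12. *Ednra*, the endothelin receptor of smooth muscle, followed with 17.002 ± 4.22 CPM per kilobase and was under *Gucy1b1* and over the next member in 12 of 12 lungs. *Ptgis*, prostacyclin synthase, had 11.3 ± 1.72 CPM per kilobase and *Agtr1a*, the angiotensin II receptor, 8.76 ± 1.76. *Edn1*, which encodes endothelin-1, had 7.66 ± 1.18, *Nos3*, the endothelial nitric oxide synthase, 5.98 ± 0.933, and *Prkg1*, the cGMP-dependent protein kinase, 5.52 ± 0.522 CPM per kilobase (SD, n = 12 each). *Agtr1a* was above *Edn1* in 8 of 12 lungs and *Nos3* above *Prkg1* in 9 of 12, so that these neighbours overlapped in level.

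None of the 10 members was called in hyperoxia-exposed against room air lungs of both sexes together, where 0.0415% of all genes were called. A call required more than a 1.5-fold change and, in edgeR's quasi-likelihood test, an adjusted p (Benjamini-Hochberg, over all genes) below 0.05. The member with the smallest p was *Edn1*, and it was higher after hyperoxia in the mean of either sex. The difference was small, 0.30 on the log2 scale with a standard error of 0.11, and its adjusted p was 0.921. Without adjustment its p was 0.0085, and it was 1 of 10 members with an unadjusted p under 0.05, against 5.20% of all genes. Of the 10 members, 6 had log2 fold changes below 0, against 44.0% of all genes, and 0 had exposures that did not overlap, against 0.214%. Apart from *Edn1* and *Pde5a*, the members lay between −0.09 and 0.08. Their standard errors ran from 0.12 to 0.22, and their adjusted p from 0.947 to 1.00.

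**Figure D1:**
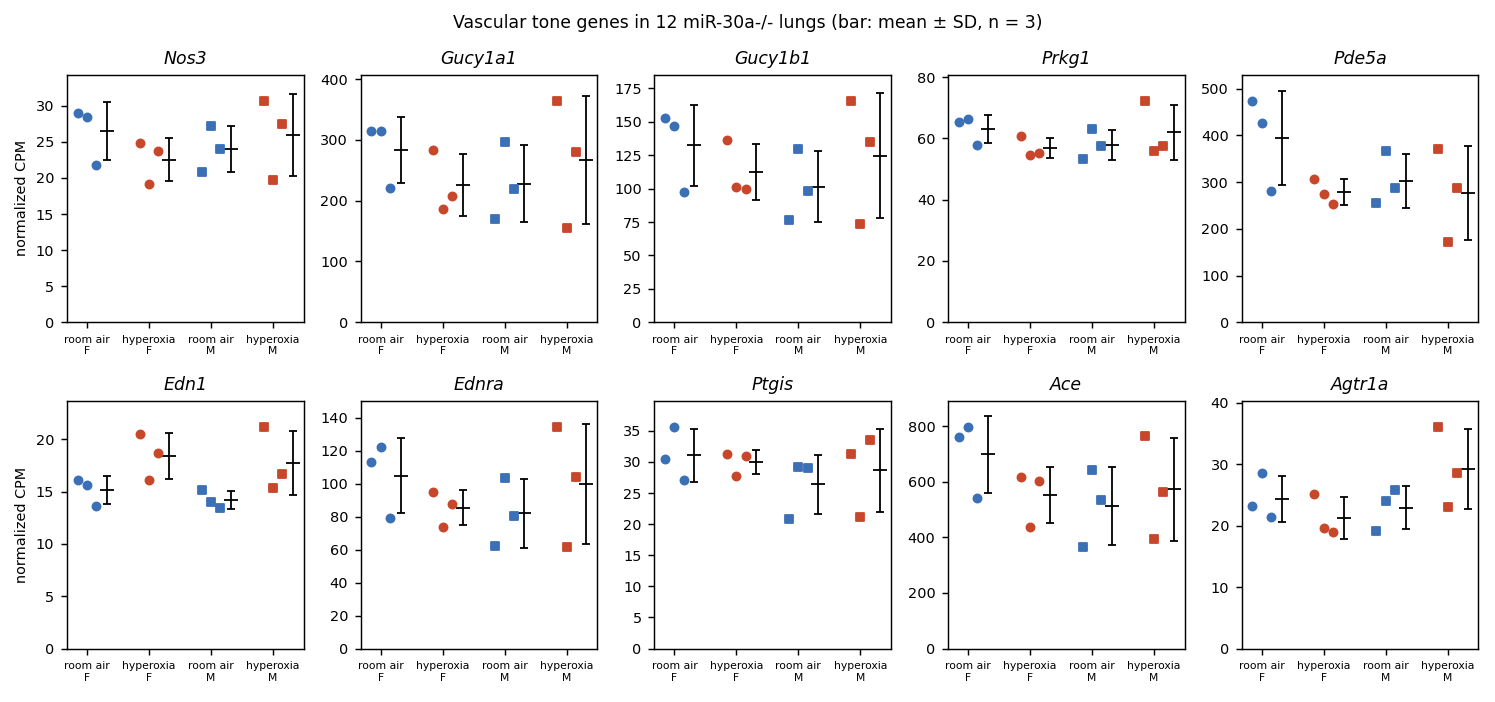
Normalized CPM (y axis, from 0, a separate scale for each gene) of the 10 members in each lung of the 4 groups (x axis). Circles are females and squares males, blue is room air and red hyperoxia, and the bar beside each group is its mean ± SD (n = 3). The hyperoxia and room air lungs overlapped for every member when the sexes were pooled, and did not overlap for *Edn1* in males alone.

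*Edn1* (ENSMUSG00000021367) lies on chromosome 13 of mm10 from 42301476 to 42307990. In males it stood at 21.1, 15.3 and 16.7 CPM after hyperoxia and at 15.2, 14.0 and 13.5 CPM in room air. In females it stood at 20.5, 16.1 and 18.7 CPM after hyperoxia and at 16.2, 15.7 and 13.6 CPM in room air. The lowest male lung after hyperoxia was just above the highest room air male, while in females 1 hyperoxia lung lay just under the highest room air lung. Groups that did not overlap were found in males for 1 of 10 members, *Edn1*, against 6.62% of all genes. The log2 fold change was 0.28 in females (standard error 0.15, adjusted p = 0.414, edgeR) and 0.32 in males (standard error 0.15, adjusted p = 1.00). The difference between these was −0.04 (standard error 0.21, adjusted p = 0.949). With each of the 12 lungs left out in turn the value for both sexes stayed between 0.23 and 0.35, and it was 0.33 without room air male 1. In males the same fits gave 0.18 without hyperoxia male 1 to 0.42 without hyperoxia male 2. Over all alternatives the female value ran from 0.18 with DESeq2 to 0.51 with background subtracted. In the fit with the receptor share as covariate the value for both sexes was 0.36 with an adjusted p of 0.0392, a threshold that 0.332% of all genes passed in that fit, but the fold change stayed under 1.5. That fit gave 0.46 in females, with an adjusted p of 0.472. Background, estimated from read density on the receptor genes, amounted to 15.7% of its counts. The antisense gene *Gm47118* shares 35 exon bases with it, and since the strand setting of the counting is not given in the sources used here, reads there cannot be told apart.

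The promoter of *Edn1* is shown because this was the member with the smallest p, beside that of *Gucy1b1*, which enters the ratio with *Pde5a* described further on. Both are from RefSeq (GRCm38.p6) and run from 250 bases before the annotated start to 50 after it, chr13:42301226-42301525 on the plus strand and chr3:82074662-82074961 on the minus strand. Capitals mark matches, on either strand, to ACGTG (the core of the hypoxia response element), TGANTCA (AP-1), GATAA (GATA factors) and CCAAT.
Edn1: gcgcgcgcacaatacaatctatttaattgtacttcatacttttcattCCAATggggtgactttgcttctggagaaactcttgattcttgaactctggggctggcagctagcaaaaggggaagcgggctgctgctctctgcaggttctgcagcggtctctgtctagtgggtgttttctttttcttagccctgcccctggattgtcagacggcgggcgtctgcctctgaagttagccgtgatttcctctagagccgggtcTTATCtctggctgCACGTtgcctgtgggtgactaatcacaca
Gucy1b1: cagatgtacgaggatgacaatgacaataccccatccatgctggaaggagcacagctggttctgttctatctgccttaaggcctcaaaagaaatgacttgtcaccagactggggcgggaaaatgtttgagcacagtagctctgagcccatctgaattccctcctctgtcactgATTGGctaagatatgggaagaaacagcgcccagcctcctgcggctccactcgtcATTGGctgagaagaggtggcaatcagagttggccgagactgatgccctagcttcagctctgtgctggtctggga
The *Edn1* window held 1 match each to the hypoxia response core, GATA and CCAAT, and the *Gucy1b1* window held 2 to CCAAT. None of the marked matches overlap. Of 32851 promoters in the table, 19.6% held the hypoxia response core, 7.81% the AP-1 letters, 25.4% GATA and 37.4% CCAAT. The table had 10 windows for 7 members, of which 2, 0, 2 and 4 held these motifs. *Nos3*, *Ptgis* and *Agtr1a* were not in it.

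*Nos3* (ENSMUSG00000028978) lies on chromosome 5 from 24364810 to 24384474. The hyperoxia females had 24.8, 19.2 and 23.7 CPM, and the room air females 29.1, 28.5 and 21.8 CPM. In males it stood at 30.7, 19.7 and 27.5 CPM after hyperoxia and at 20.8, 27.2 and 23.96 CPM in room air. The exposures overlapped in both sexes, with log2 fold changes of −0.23 in females and 0.12 in males (standard error 0.17 each). The female value was −0.36 without room air female 6 and −0.13 without hyperoxia female 4. Background amounted to 19.7% of its counts. It shares 1040 exon bases with the antisense gene *Gm15587* and 294 with *Atg9b* on the other strand, so that its level is uncertain.

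*Gucy1a1* (ENSMUSG00000033910) and *Gucy1b1* (ENSMUSG00000028005) encode the subunits that pair to form soluble guanylate cyclase, and they are neighbours on the minus strand of chromosome 3, from 82092427 to 82145789 and from 82032006 to 82074689, with 17737 bases between them. In females, *Gucy1a1* averaged 226 ± 51.3 CPM after hyperoxia and 283 ± 54.4 CPM in room air, and in males 267 ± 105 and 228 ± 64.0 CPM (SD, n = 3 each). *Gucy1b1* had 137, 101 and 99.5 CPM in the hyperoxia females and 153, 147 and 97.2 CPM in the room air females. In males it stood at 166, 73.5 and 135 CPM after hyperoxia and at 76.7, 130 and 98.2 CPM in room air. Hyperoxia male 2 was the lowest and hyperoxia male 1 the highest of the 12 lungs for both genes, so that the hyperoxia males spanned the whole range. The log2 fold change of both sexes was −0.05 for *Gucy1a1* (standard error 0.21) and 0.03 for *Gucy1b1* (standard error 0.19).

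*Prkg1* (ENSMUSG00000052920), on chromosome 19 from 30564489 to 31765033, carries the cGMP signal to its targets and was the member that varied least, from 53.2 to 72.2 CPM over the 12 lungs. Its hyperoxia lungs ran from 54.7 to 72.2 CPM with a median of 56.9, and its room air lungs from 53.2 to 66.2 CPM with a median of 60.5. Between the exposures it differed by −0.03 on the log2 scale (standard error 0.12), and background amounted to 21.6% of its counts, the largest share among the members.

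*Pde5a* (ENSMUSG00000053965) lies on chromosome 3 from 122728947 to 122859374 and encodes the target of sildenafil. In females it stood at 308, 274 and 254 CPM after hyperoxia and at 474, 427 and 281 CPM in room air. In males it stood at 372, 172 and 287 CPM after hyperoxia and at 255, 366 and 287 CPM in room air. The 2 highest values of all 12 lungs were room air females, the lowest was hyperoxia male 2, and the exposures overlapped in both sexes. *Pde5a* had a log2 fold change of −0.31 in both sexes together (standard error 0.20, adjusted p = 0.927, edgeR), −0.50 in females (standard error 0.29, adjusted p = 0.433) and −0.13 in males (standard error 0.29, adjusted p = 1.00). With 1 factor of unwanted variation removed (RUVr), the value for both sexes was −0.32 with an adjusted p of 8.4e-05, whereas adding the receptor share as covariate gave −0.13 with an adjusted p of 0.725. Leaving out hyperoxia male 2 gave −0.19. The female value was 0.020 with the receptor share as covariate and −0.27 with background subtracted (adjusted p = 0.999 and 0.716, edgeR), and −0.78 with the replicate block. In the RUVr fit the threshold of 0.05 was passed by 2 of 10 members, *Pde5a* and *Edn1*, against 4.51% of all genes, and neither reached 1.5-fold.

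*Ednra* (ENSMUSG00000031616), on chromosome 8 from 77663031 to 77724464, receives endothelin-1 on smooth muscle. Females had 85.5 ± 10.6 CPM after hyperoxia and 105 ± 22.8 CPM in room air, and males 100.02 ± 36.3 and 82.0 ± 20.8 CPM (SD, n = 3 each). The exposures differed by −0.0029 on the log2 scale in both sexes together (standard error 0.17), next to the 0.30 of its ligand gene. It shares 91 exon bases with *4933431K23Rik* on the other strand.

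*Ptgis* (ENSMUSG00000017969) lies on chromosome 2 from 167191805 to 167240604. It ran from 21.1 to 33.5 CPM after hyperoxia (median 31.1) and from 20.9 to 35.5 CPM in room air (median 29.1), with a log2 fold change of 0.04 (standard error 0.12). The lowest lungs of the exposures were hyperoxia male 2 and room air male 1. It shares 156 exon bases with *1110018N20Rik* on the other strand.

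*Ace* (ENSMUSG00000020681), on chromosome 11 from 105967945 to 105989964, makes angiotensin II. Females had 552 ± 100 CPM after hyperoxia and 698 ± 138 CPM in room air, and males 573 ± 185 and 513 ± 140 CPM (SD, n = 3 each). For both sexes together the log2 fold change of *Ace* was −0.09 (standard error 0.22), and background amounted to 1.06% of its counts. It shares 295 exon bases with the antisense gene *Gm11651*.

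*Agtr1a* (ENSMUSG00000049115), on chromosome 13 from 30336441 to 30382867, encodes the receptor through which angiotensin II constricts vessels. In males it stood at 36.0, 23.03 and 28.6 CPM after hyperoxia and at 19.1, 23.95 and 25.7 CPM in room air. In females it stood at 25.1, 19.6 and 18.95 CPM after hyperoxia and at 23.2, 28.5 and 21.4 CPM in room air. Hyperoxia males 1 and 3 were above all room air males, and hyperoxia females 4 and 5 were under all room air females. The difference was 0.35 on the log2 scale in males (standard error 0.17) and −0.20 in females (standard error 0.17), and neither passed adjustment (adjusted p = 1.00 and 0.568, edgeR). Without hyperoxia male 1 the value in males was 0.18, and without room air male 1 it was 0.24. With each lung left out the female value ran from −0.34 without hyperoxia female 2 to −0.069 without room air female 5, and it was −0.12 without hyperoxia female 5.

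**Figure D2:**
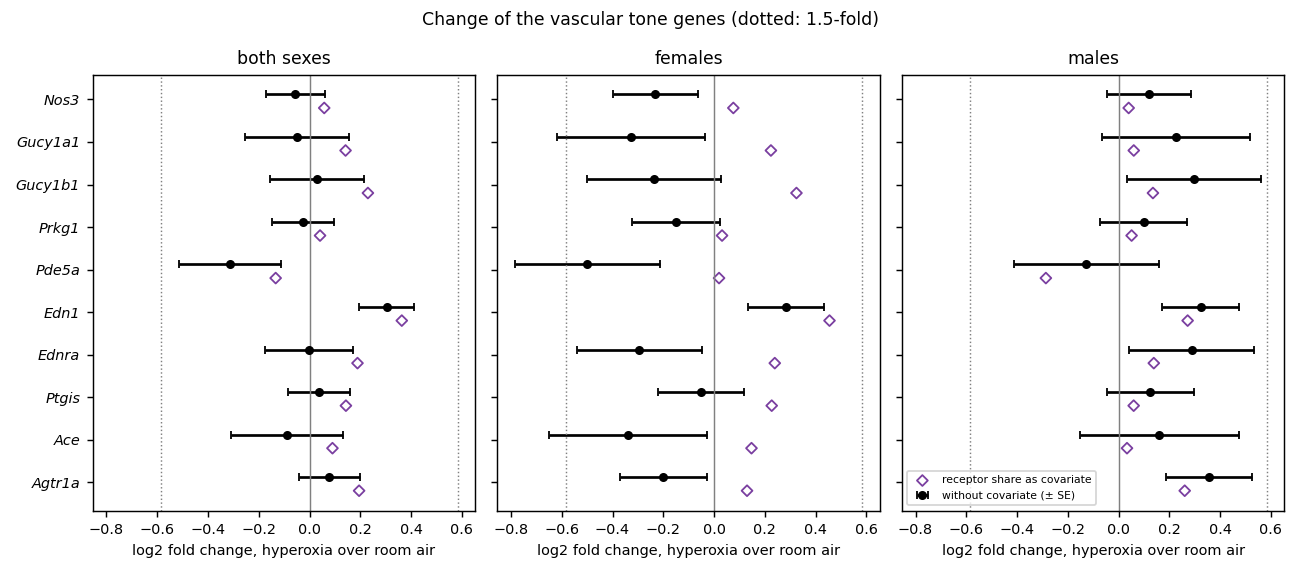
The log2 fold change of each member (rows), hyperoxia over room air, in both sexes together and in females and males. Filled points with bars are the fit without the receptor share ± its standard error, open diamonds the fit with that share added, and the dotted lines are at 1.5-fold. In females 9 of 10 filled points lie below 0 and 10 of 10 diamonds above it, while *Edn1* lies above 0 in all 3 panels under both fits.

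In females, hyperoxia against room air called 0 of 10 members, against 0.00218% of all genes, and 0 had an unadjusted p under 0.05, against 12.6%. Their log2 fold changes were below 0 for 9 of 10 members, against 39.0% of all genes, although under the receptor share covariate all 10 were above 0, against 50.5% of all genes. Only 21379 of the 45828 genes behind the 39.0% reached 5 CPM, and no share was counted for those alone. Of the 70 further genes of these pathways described below, 49 were also below 0 in females. The median of the members was −0.23 beside 0.11 over all genes. In males 0 of 10 members were called, against 0% of all genes, and 2 of 10, *Edn1* and *Agtr1a*, had an unadjusted p under 0.05, against 2.70%. Here 9 of 10 members were above 0, against 48.0% of all genes, with a median of 0.19 beside −0.01 over all genes, and the sign of 6 of the 10 turned when 1 lung was left out. The members are not independent of one another, because their levels rose and fell together across lungs. No member had exposures that did not overlap in females, against 17.2% of all genes.

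Marker lists and background shares are given here by sex. No marker gene was called in females, against 0.00218% of all genes, and both background shares overlapped between the exposures. The median log2 fold change in females was −0.57 for the 4 airway epithelial markers, −0.50 for the 8 alveolar epithelial, −0.40 for the 10 endothelial, −0.33 for the 6 fibroblast, −0.18 for the 8 smooth muscle and −0.18 for the 5 pericyte markers. In males the same lists had −0.06, 0.16, 0.06, −0.39, −0.07 and 0.27. Endothelial markers summed to 1767 to 2357 CPM in hyperoxia females and 2023 to 3056 CPM in room air females, and smooth muscle markers to 250 to 286 CPM and 291 to 338 CPM. The endothelial sums overlapped and the smooth muscle sums did not, while 17.2% of all genes taken singly did not overlap in females. The heart muscle markers had a median of −0.86 in females and −0.31 in males, the 7 leukocyte markers −0.28 and 0.03, and the 5 red cell markers −1.39 and −1.01. Medians above 0 in females, opposite to most members, were those of the 9 skeletal muscle markers (0.25, with −2.10 in males) and the 4 thymus and lymph node markers (0.34, with −0.16 in males). The receptor share was 0.710% to 0.899% in hyperoxia females and 0.435% to 0.786% in room air females, and the 4 predicted genes took 18.7% to 27.1% and 7.23% to 20.04%. In males the receptor share was 0.547% to 1.00% after hyperoxia and 0.681% to 0.955% in room air. With the share of the predicted genes as covariate, chosen after seeing the data, all 10 members were above 0 in females, as under the receptor share. The part of the marker lists in the female values was not tested.

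The difference between the sexes was tested as an interaction, the change in females minus that in males. It called 0 of 10 members, against 0% of all genes. The median of the members was −0.44 beside 0.12 over all genes. The members are not independent of one another, and under the receptor share covariate most of their values turned above 0. Only *Agtr1a* had an unadjusted p under 0.05 (−0.55, standard error 0.24, adjusted p = 0.578, edgeR), 1 of 10 members against 8.46% of all genes. Its value stayed below 0 in every alternative run, from −0.71 to −0.06, with adjusted p from 0.0051 to 1.00. In the RUVr fit with 1 factor the interaction passed an adjusted p under 0.05 for 4 of 10 members, against 11.7% of all genes: *Ednra* (adjusted p = 0.0011, edgeR), *Gucy1b1* (0.0042), *Agtr1a* (0.0090) and *Gucy1a1* (0.023), all below 0 and none past 1.5-fold. With 2 factors *Ace* passed too (adjusted p = 0.034, edgeR). In females the RUVr fit with 1 factor passed 3 of 10 members at an adjusted p under 0.05, *Pde5a*, *Ednra* and *Gucy1a1*, all lower, against 16.7% of all genes.

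Levels of 9 of the 10 members were lower in lungs with a higher receptor share. Over the 12 lungs, the log2 CPM of *Pde5a* had a Pearson correlation of −0.90 with the log2 receptor share and −0.95 by ranks (Spearman). Of the 10 members, 9 had a Pearson correlation between −0.90 and −0.65 and a Spearman correlation from −0.97 to −0.71. Pearson values as far below 0 were also found for 17.7% of all genes tested and for 36.9% of the 21379 genes of at least 5 CPM, so that such values were common among expressed genes. *Edn1* was the exception, with −0.23 by Pearson and −0.30 by Spearman. Without the 2 lungs farthest from the median share, the Pearson correlations of the 9 ran from −0.94 to −0.40, the weakest being *Agtr1a*, and that of *Edn1* was −0.08. Within the 6 hyperoxia lungs *Edn1* had −0.78 and within the 6 room air lungs −0.59, and the other 9 ran from −0.94 to −0.63 in hyperoxia and from −0.95 to −0.75 in room air. The share and the levels come from the same counts, so that they are not independent measures, and the correlations are given as a description with no p.

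**Figure D3:**
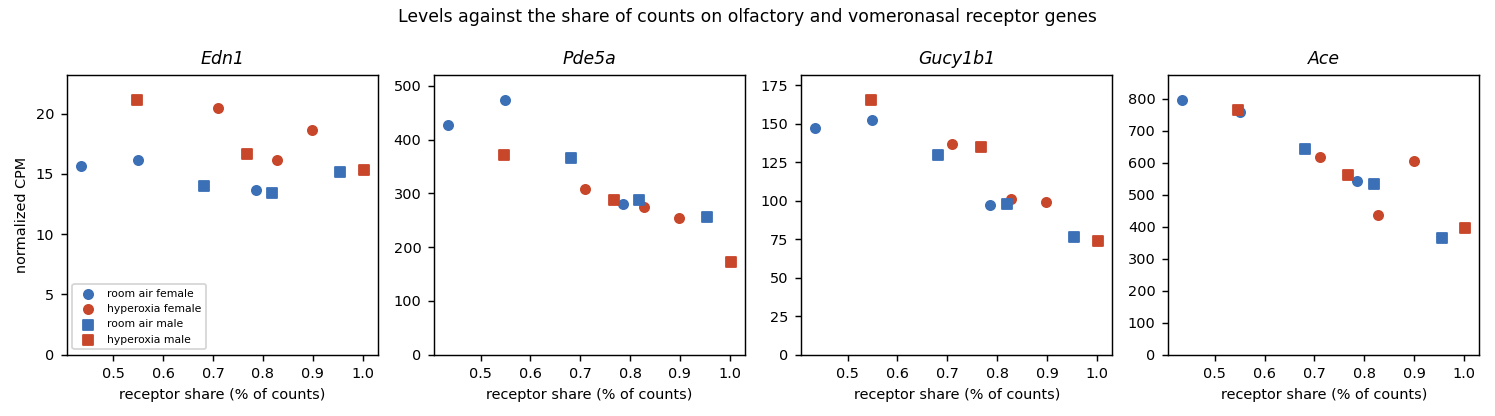
Normalized CPM (y axis, from 0) of *Edn1*, *Pde5a*, *Gucy1b1* and *Ace* against the receptor share of the library in percent of counts (x axis), 1 point per lung, circles for females, squares for males, blue for room air and red for hyperoxia. *Pde5a*, *Gucy1b1* and *Ace* fall from the lungs with the lowest share to those with the highest, whereas hyperoxia lungs lie above room air lungs of like share for *Edn1*.

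The members moved together from lung to lung. Over the 45 pairs, the Pearson correlation of log2 CPM across the 12 lungs had a median of 0.81 and ran from 0.13 to 0.98, and 24 pairs were above 0.8. The highest was that of the 2 cyclase subunits (0.98), followed by *Gucy1a1* and *Ednra*. *Edn1* had the lowest median with the other members (0.36), with values from 0.13 with *Pde5a* to 0.47 with *Gucy1b1*. The pair of *Pde5a* and *Agtr1a* was also low (0.44). All pairs share their libraries and depth, and the receptor share moved with 9 of the 10 genes, so that these values are given as a description only.

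Among 21379 genes of at least 5 CPM, the levels most like those of 9 members are given, found by the same correlation over the 12 lungs. For *Gucy1b1* they were *Itga8*, *Nox4* and *Tek* (0.98 to 0.99), and for *Gucy1a1* they were *Limch1*, *Pdzd2* and *Npc1* (0.99 each). *Ace* was most like *Vkorc1l1*, *Vwf* and *Ramp2* (0.98 each), *Pde5a* like *Colec12*, *Ube3b* and *Tspan13*, and *Nos3* like *Ankrd13a*, *2810025M15Rik* and *Ggcx*. *Prkg1* was most like *Gm29237*, *Vhl* and *Vps26b*, *Agtr1a* like *Tbc1d17*, *Gm17491* and *Fbxl20*, and *Ptgis* like *Dcun1d3*, *Rusc2* and *Ehd3*. How common such values were differed between members: 9.66% of these genes had a correlation of 0.9 or more with *Gucy1a1*, 9.13% with *Pde5a*, 7.47% with *Gucy1b1*, 5.35% with *Ace*, 4.13% with *Nos3*, 3.17% with *Prkg1*, 0.150% with *Agtr1a* and 0.131% with *Ptgis*. For *Edn1* no gene reached 0.9, the closest being *Gm48998* (0.89), *Lurap1* (0.86) and *Lzts3* (0.85).

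Ratios between members within a library were compared for all 45 pairs. The 6 hyperoxia and 6 room air lungs did not overlap for 1 of the 45, against 0.671% of all pairs of the 14591 genes of at least 10 CPM. This was the ratio of *Gucy1b1* to *Pde5a*, the cyclase subunit that helps to make cGMP over the enzyme that degrades it. It was 0.446, 0.426 and 0.470 in hyperoxia males, and 0.444, 0.368 and 0.391 in hyperoxia females. In room air it was 0.301, 0.355 and 0.342 in males, and 0.322, 0.345 and 0.346 in females. Every hyperoxia lung was above every room air lung, the closest pair being hyperoxia female 4 and room air male 4. The ratios were compared after the levels had been seen, so no test is given. The ratio is of CPM, not per length, and concerns transcripts of whole lung, not the enzymes.

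**Figure D4:**
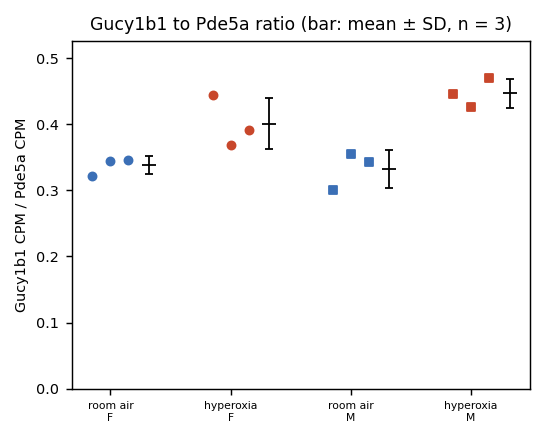
Ratio of *Gucy1b1* CPM to *Pde5a* CPM (y axis, from 0) in each lung of the 4 groups (x axis), with the mean ± SD of 3 lungs beside each. The 6 hyperoxia lungs sit between 0.368 and 0.470, above the 6 room air lungs at 0.301 to 0.355.

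A wider list of 70 genes of the same pathways was examined in the same fit, and 0 of 70 were called in both sexes together, in females or in males, against 0.0415%, 0.00218% and 0% of all genes. In both sexes together 2 of 70 had an unadjusted p under 0.05 (5.20% of all genes), both below 0. The first was *Ddah1*, whose enzyme degrades the inhibitor of nitric oxide synthase, asymmetric dimethylarginine. It ran from 18.2 to 28.9 CPM after hyperoxia (median 22.1) and from 25.02 to 44.5 CPM in room air (median 29.5), so that the exposures overlapped. *Ddah1* had a log2 fold change of −0.43 in both sexes (standard error 0.13, adjusted p = 0.727, edgeR), with −0.47 in females and −0.39 in males. The second was *Ptgs2*, the inducible cyclooxygenase, which ran from 9.51 to 14.7 CPM after hyperoxia and from 12.02 to 20.1 CPM in room air. On the log2 scale *Ptgs2* differed by −0.33 with a standard error of 0.12 (adjusted p = 0.927, edgeR). Background amounted to 39.0% of the *Ptgs2* counts and 17.2% of the *Ddah1* counts. The exposures did not overlap for 1 of the 70, against 0.214% of all genes. This was the arginine transporter *Slc7a1*, named after its values were seen, which ran from 38.1 to 43.1 CPM after hyperoxia and from 43.5 to 47.7 CPM in room air.

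By role, the 13 genes around nitric oxide synthesis had a median log2 fold change of −0.10 in both sexes together, and 12 of 13 were below 0, against 44.0% of all genes. In females 12 of 13 were also below 0 (39.0% of all genes), with a median of −0.21, and in males 7 of 13 were above 0 (48.0% of all genes), with a median of 0.0022. In both sexes together the 15 cGMP genes had a median of 0.05 (6 below 0), the 5 endothelin genes −0.10 (3 below 0), the 8 prostanoid genes −0.05 (6 below 0), the 11 angiotensin genes −0.11 (8 below 0) and the 18 genes of contraction and its channels and receptors −0.10 (12 below 0), beside 0.03 over all genes. Below 0 in females were 8 of the 15 cGMP genes, 4 of 5 endothelin, 4 of 8 prostanoid, 7 of 11 angiotensin and 14 of 18 contraction genes, and above 0 in males were 11, 4, 3, 6 and 14 of them. In females 8 of 70 had an unadjusted p under 0.05 (12.6% of all genes), 1 above 0 and 7 below, and in males 3 of 70 did (2.70% of all genes). The 7 in females were *Ddah1*, *Ptgs2*, *Npr3*, the clearance receptor of natriuretic peptides (−0.53), *Vasp*, a substrate of the cGMP kinase (−0.47), *Ptgir*, the prostacyclin receptor (−0.32), and *Rhoa* and *Rock2* of the pathway that sustains contraction (−0.54 and −0.57). The calcium-activated potassium channel gene *Kcnma1* was above 0 (0.37), with background at 45.1% of its counts. In males *Pde9a*, a phosphodiesterase of cGMP, had 0.38, *Ptger3*, a prostaglandin E2 receptor, −0.40 with background at 60.3% of its counts, and *Ddah1* −0.39. The smallest adjusted p of the list was 0.352 in females and 1.00 in males (edgeR).

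**Figure D5:**
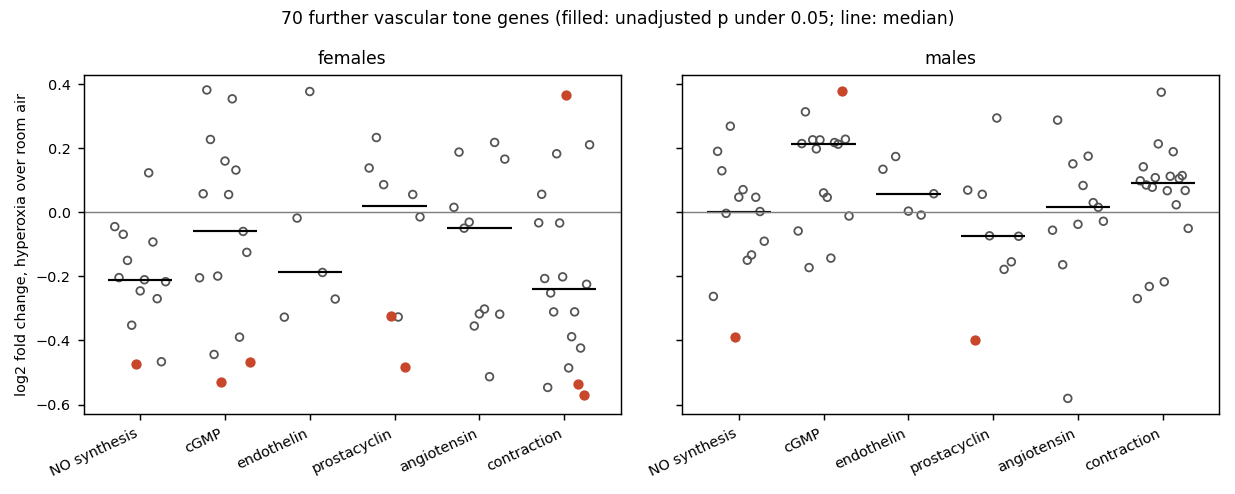
The log2 fold change, hyperoxia over room air (y axis), of the 70 further genes by role (x axis) in females and males. Each point is a gene, filled points have an unadjusted p under 0.05, and the line is the median of the role. Of the 70, 49 lie below 0 in females and 25 in males.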

How the data were processed

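RNA-Seq of 12 whole lungs was analysed, and sex, exposure and animal number came from the sample titles and characteristics. Reads were trimmed (Trim Galore), aligned to mm10 (STAR) and counted per gene (featureCounts) by the authors, who deposited raw counts; versions and the strand setting are not given in the sources used here. For library preparation the labels name an NEBNext Ultra II Directional kit and the methods a QIAseq Stranded kit. No 2 libraries held identical counts. The labels do not tie lungs to litters.

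Counts were fitted with edgeR 4.0.16 in R 4.3.3 (robust quasi-likelihood, upper-quartile normalization, filterByExpr, 4 groups, 45828 genes), with a biological coefficient of variation of 0.177. ComBat-seq, which the paper applied, was not run here. How many RUVr factors the paper used is not given, so that RUVr with 1 or 2 factors was an alternative. A gene was called if its adjusted p was below 0.05 and it changed by more than 1.5-fold. Contrasts were the mean of the sexes, each sex, and their difference. Correlations used log2(CPM + 1). Background was the median read density on olfactory and vomeronasal receptor genes times exon length (GENCODE M21, GRCm38). DESeq2 1.42.0 served as an alternative, beside TMM, other filters, covariates, a replicate block and each lung left out.

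The genes named were the 10 members, genes of the wider list with an unadjusted p under 0.05, the 3 genes most like each member (not reported here for *Ednra*) and marker genes; others are marked as such. Members and lists were chosen with earlier results of these data known. Figures were drawn with matplotlib 3.10.9.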

Additional observations from a re-analysis of the deposited data

Results flagged for a closer look

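*Prkg1* in hyperoxia male 1 stood at 72.2 CPM, apart from the other 5 hyperoxia lungs by more than Dixon's 95% limit for 6 values (0.625 of the range). This was 1 of 20 groups of 6 lungs examined, and chance alone flags about 1 in 20. The same lung was the highest of the hyperoxia lungs for 9 of the 10 members.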

How the results depend on the processing

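No member was called in any of 900 refitted values, and 805 kept their direction. The log2 fold change of *Edn1* in both sexes stayed above 0 in every alternative, from 0.23 to 0.41, with adjusted p from 0.0145 to 1.00, and that of *Pde5a* below 0, from −0.48 to −0.13. Depth (8763033 to 16741694 counts) and 3 lungs a group limit what could be detected.

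Genes called in both sexes together, 19 in the fit reported, were 40 with DESeq2, 92 and 110 with 1 and 2 RUVr factors, 9 with background subtracted, 4 with the replicate block, and 3 to 37 with each lung left out. In females, 1 in the fit reported, they were 0 with TMM, 89 with DESeq2, 8 with no filter, 1903 and 1931 with RUVr, 0 after background subtraction, 21 under the receptor share covariate, 0 with the replicate block, 80 with only the 6 libraries compared, 25 with the share of the 4 predicted genes as a covariate (chosen after seeing the data), and 0 to 206 with each lung left out. Of these, 206 were without room air female 6, 43 without hyperoxia male 2, 20 without hyperoxia male 1, 8 without room air male 1, 5 without room air male 4, 3 without hyperoxia female 2, 2 without room air female 5, and 0 without room air female 2, room air male 5, hyperoxia male 3 or hyperoxia female 5. In males, 0 in the fit reported, they were 16 and 64 with RUVr, 6 under the receptor share covariate, 2 with only the 6 libraries, 6 with the 4 predicted genes, and 0 to 1 with each lung left out, the 1 without hyperoxia female 2. The interaction called 0 genes in the fit reported, 2101 and 2194 with RUVr. In both sexes together the count was 37 without hyperoxia male 1, 32 without room air female 6, 10 without hyperoxia female 2, 6 without room air male 5, 4 without room air female 2 and 3 without hyperoxia female 5. The cause was not tested.

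The following members changed direction, and none of these values was called. Under the receptor share covariate, both sexes together gave 0.058 for *Nos3*, 0.14 for *Gucy1a1*, 0.042 for *Prkg1*, 0.19 for *Ednra* and 0.090 for *Ace*. Females gave 0.076 for *Nos3*, 0.22 for *Gucy1a1*, 0.32 for *Gucy1b1*, 0.032 for *Prkg1*, 0.020 for *Pde5a*, 0.24 for *Ednra*, 0.23 for *Ptgis*, 0.15 for *Ace* and 0.13 for *Agtr1a*. The interaction gave 0.036 for *Nos3*, 0.16 for *Gucy1a1*, 0.19 for *Gucy1b1*, 0.31 for *Pde5a*, 0.18 for *Edn1*, 0.10 for *Ednra*, 0.17 for *Ptgis* and 0.11 for *Ace*. With the share of the 4 predicted genes, both sexes together gave 0.055 for *Nos3*, 0.13 for *Gucy1a1*, 0.042 for *Prkg1*, 0.18 for *Ednra* and 0.088 for *Ace*. Females gave 0.10 for *Nos3*, 0.26 for *Gucy1a1*, 0.35 for *Gucy1b1*, 0.050 for *Prkg1*, 0.041 for *Pde5a*, 0.27 for *Ednra*, 0.24 for *Ptgis*, 0.19 for *Ace* and 0.17 for *Agtr1a*. Males gave −0.016 for *Ace*. The interaction gave 0.084 for *Nos3*, 0.25 for *Gucy1a1*, 0.25 for *Gucy1b1*, 0.016 for *Prkg1*, 0.37 for *Pde5a*, 0.24 for *Edn1*, 0.18 for *Ednra*, 0.20 for *Ptgis* and 0.21 for *Ace*. With background subtracted, both sexes together gave 0.022 for *Gucy1a1*, 0.012 for *Prkg1*, 0.074 for *Ednra* and 8.9e-05 for *Ace*. Females gave 0.15 for *Ptgis*. The interaction gave 0.18 for *Edn1* and 0.069 for *Ptgis*. With at least 10 counts in every library, both sexes together gave 0.0045 for *Prkg1* and 0.027 for *Ednra*. Females gave 0.021 for *Ptgis*. The interaction gave 0.041 for *Edn1*. With DESeq2, both sexes together gave −0.0063 for *Gucy1b1* and −0.0057 for *Ptgis*.

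With animal number as a replicate block, both sexes together gave −0.13 for *Gucy1b1* and −0.014 for *Ptgis*. This block joined lungs of the same number across sexes and exposures. Room air female 6 and hyperoxia male 3 were alone at their numbers, so that the block absorbed them. For lungs with the same number and sex, the deviations from the group mean had correlations of −0.495 for male 1, 0.189 for female 2 and −0.328 for female 5. With so few pairs, these correlations cannot decide whether the numbers pair the lungs.

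With each lung left out, both sexes together ran from −0.12 to 0.027 for *Nos3*, −0.19 to 0.089 for *Gucy1a1*, −0.10 to 0.17 for *Gucy1b1*, −0.087 to 0.011 for *Prkg1*, −0.14 to 0.12 for *Ednra*, −0.033 to 0.13 for *Ptgis*, −0.22 to 0.018 for *Ace* and −0.0094 to 0.15 for *Agtr1a*. Females ran from −0.15 to 0.058 for *Ptgis*, −0.53 to −0.21 for *Gucy1a1*, −0.42 to −0.12 for *Gucy1b1*, −0.47 to −0.17 for *Ednra* and −0.50 to −0.20 for *Ace*. Males ran from −0.010 to 0.29 for *Nos3*, −0.057 to 0.51 for *Gucy1a1*, −0.022 to 0.17 for *Prkg1*, −0.39 to 0.13 for *Pde5a*, −0.014 to 0.31 for *Ptgis* and −0.10 to 0.38 for *Ace*. The interaction ran from −0.14 to 0.10 for *Edn1*.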
